A study of Mus musculus with 24 samples.

Results

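The cytochrome P450 genes of families 1 to 4 were described across mouse livers with and without the clock transcription factor BMAL1. The set held every gene whose symbol in the deposited tables was Cyp, a family number from 1 to 4, a subfamily letter and a final number. It counted 76 of the 56941 genes in the table, in 21 subfamilies. Of these, 3 belonged to family 1, 49 to family 2, 7 to family 3 and 17 to family 4. Another 6 genes with a longer symbol, such as Cyp3a41a and Cyp4a12a, fell outside the rule. Polyadenylated RNA was sequenced in 24 libraries, 3 for each of 8 groups. WT (Bmal1+/+) and KO (Bmal1-/-, without BMAL1 in the whole body) came from Bmal1+/- parents on a C57BL/6J background. F mice carried floxed Bmal1 (Bmal1 f/f) without Cre, and LKO mice carried the same floxed alleles with Alb-Cre, which acts in cells that express Albumin, in the liver chiefly hepatocytes. Livers of each genotype were taken at circadian times CT2 and CT14, early in the subjective day and the subjective night. The labels give neither age nor sex, and they do not say whether replicates were separate animals, so the p-values may measure only the spread between these samples.

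P450 enzymes are haem proteins that insert an oxygen atom into a substrate, with electrons that NADPH-cytochrome P450 reductase hands on. Families 1 to 3 are best known for the first step in clearing drugs, toxins and steroids, and family 4 for hydroxylating fatty acids at the end of the chain. In liver many of them are switched on by receptors for foreign compounds, among them AHR, CAR (Nr1i3) and PXR (Nr1i2), and the Cyp4a genes by the fatty acid receptor PPAR alpha. Several are read at different levels in male and female liver, and several are placed in the rows of hepatocytes around the central vein.

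Total estimated counts ran from 88995259 to 131544733 per library, and 20514 genes were kept for testing. Bmal1 itself fell at CT2 in KO (log2 fold change -2.11 ± 0.36, SE, adjusted p = 0.00576) and in LKO (-1.95 ± 0.36, adjusted p = 0.0112), and was not called at CT14, where the controls were low too. A few libraries carried other tissue or low sex-chromosome signals. Pancreatic enzyme genes summed to 2834 CPM (counts scaled to library size) in F CT2 replicate 3 and 755 CPM in F CT14 replicate 3, against at most 102 CPM elsewhere. The Y-linked gene Ddx3y was low at CT2 in replicate 3 of both F and LKO and in replicate 1 of KO (3.86 to 9.61 CPM), against at least 25.7 CPM in the others. The X-linked gene Xist was near 0 in every library, these included (0 to 0.362 CPM). Of 6 spermatid genes 4 were called higher in KO (all genes 3.11%), through KO CT2 replicate 2 (4.24 CPM in sum) and KO CT14 replicate 1 (4.83 CPM). The 6 genes summed to 4.22 to 19.9 CPM in F and LKO. Cholangiocyte markers (7 genes, none at 0) summed to 176.5 CPM in KO CT2 replicate 3 and 267 CPM in KO CT14 replicate 3, against 37.1 to 85.7 CPM in the other KO libraries and 29.6 to 72.5 CPM in WT. Leaving out either library ended the KO calls of Cyp1a2, Cyp2a22, Cyp2c40, Cyp4a10 and Cyp4a32. These calls were not lost through those libraries alone. They ended without any 1 of 16, 6, 6, 8 and 17 libraries, in the same order. Of 11 acute phase and interferon genes 2 were higher in KO (all genes 3.11%) and 3 lower in LKO (all genes 1.43%). The 11 genes summed to 3651 to 18847 CPM in F and 2430 to 8924 CPM in LKO. At CT14 they summed to 10584 to 12206 CPM in KO, above 2814 to 4853 CPM in WT. At CT2 the sums overlapped (6548 to 10690 CPM in KO and 3859 to 13970 CPM in WT). Hepatocyte markers such as Alb and Apoa1, 9 in all and none at 0, summed to 94932 to 124920 CPM in WT and 61909 to 100340 CPM in KO. They summed to 97189 to 142300 CPM in F and 68026 to 95474 CPM in LKO, and the part of these list levels in the results that follow was not tested. In whole tissue, fewer cells of a type and less RNA per cell cannot be told apart.

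The P450 transcripts together made up 1.28% to 2.46% of all transcripts in a library, measured as TPM (a share of all transcripts that corrects for gene length and so allows levels of different genes to be compared). Of the 76 genes, 54 had a mean above 1 TPM over the 24 libraries, 26 above 100 TPM and 5 above 1000 TPM. Those 5 carried 59.3% of the summed level. Cyp2e1, which oxidises ethanol and paracetamol, stood highest at 5033 ± 1192 TPM (SD over 24 libraries). It was followed by Cyp3a11, the main drug-metabolising member of family 3 in mouse liver (2289 ± 662 TPM), and by Cyp2c29, an epoxygenase of arachidonic acid (1859 ± 875 TPM). Cyp2d9, a testosterone hydroxylase known from male liver (1605 ± 451 TPM), and Cyp2f2, which activates naphthalene (1020 ± 312 TPM), came next. Neighbours in this order differed by less than the sum of their SDs, apart from Cyp2e1 and Cyp3a11.

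**Figure D1:**
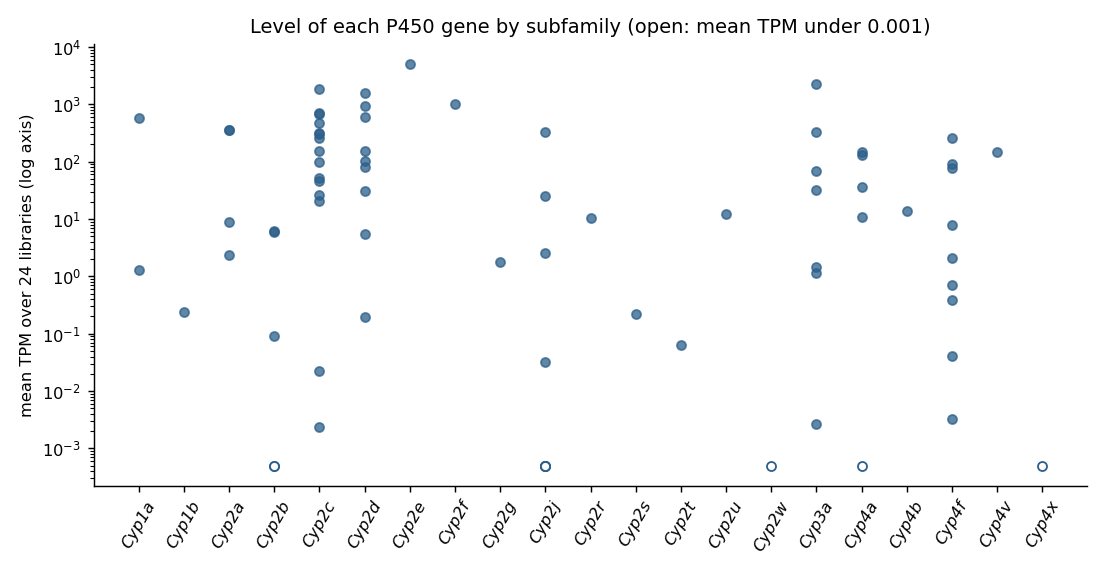
Mean level of each of the 76 P450 genes over 24 libraries in TPM on a log axis, 1 point per gene, by subfamily. Open circles at the bottom mark genes with a mean under 0.001 TPM, and 5 genes lie above 1000 TPM.

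Not every gene of the families was read in these livers. Cyp2b19, Cyp2b23, Cyp2j7, Cyp2j12, Cyp2j13, Cyp4a29 and Cyp4x1 were listed at 0 in every library. Another 7 (Cyp2c65, Cyp2c66, Cyp2j8, Cyp2j11, Cyp2w1, Cyp3a57 and Cyp4f40) had counts too low for the test, which left 62 tested genes. A weakly expressed gene could pass that filter through the groups in which it was high. Close relatives share sequence: 21 genes had at least 5% of their 100-base stretches in another P450 gene, led by Cyp2c69 (35.4%) and Cyp2c40 (34.4%), and 35 shared none. How reads were divided among such relatives was not given in the sources used here, so values of the genes with shared stretches are uncertain.

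In global knockouts, P450 genes moved in both directions. As the mean of CT2 and CT14, 15 of the 62 tested genes were called in KO against WT, 9 higher (all genes 3.11%) and 6 lower (all genes 2.29%), at an adjusted p under 0.05 in edgeR's quasi-likelihood test. Over all genes tested the called share was 5.4%, against 24.2% of the P450 genes. The median log2 fold change of the 62 was 0.01, the same as that of all genes, and as many estimates lay above 0 (31) as below. Cyp2c genes made up 6 of the 9 that rose, and none of the 13 tested Cyp2c genes was called lower. The genes that fell were Cyp2a4, Cyp2a5, Cyp2d40, Cyp4a10, Cyp4a32 and Cyp1a2. At CT2 4 genes were called (all genes 0.517%), and at CT14 13 were called (all genes 5.31%).

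In liver-specific knockouts fewer P450 genes were called. Against F, as the mean of both times, 4 of 62 rose (all genes 1.7%) and 4 fell (all genes 1.43%), which makes 12.9% called either way (all genes 3.13%). At CT2 2 were called (all genes 0.4%) and at CT14 5 (all genes 1.73%). The median log2 fold change of the 62 was 0.24, against -0.01 over all genes, and 41 of the 62 estimates lay above 0. The genes called in both knockouts were 5, which is 33.3% of the KO calls and 62.5% of the LKO calls. The shared part of the calls over all genes was not computed, so these shares have no background beside them. Cyp2c29 and Cyp2c55 rose in both, Cyp2a5 and Cyp2d40 fell in both, and Cyp4a32 was lower in KO and higher in LKO. With the replicate number as a block in the CT2 groups, where same-numbered F and LKO libraries deviated together, 4 genes were called in LKO at CT2. The share over all genes with this block is not given here. Cyp2d40 (-1.58 ± 0.32, adjusted p = 0.0258) and Cyp4f15 (0.79 ± 0.17, adjusted p = 0.0330) joined Cyp2c29 and Cyp2c55. In the mean of both times the same block ended the LKO call of Cyp4a32 (adjusted p = 0.0655) and brought in Cyp2d26 (-0.60 ± 0.14, adjusted p = 0.0183).

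**Figure D2:**
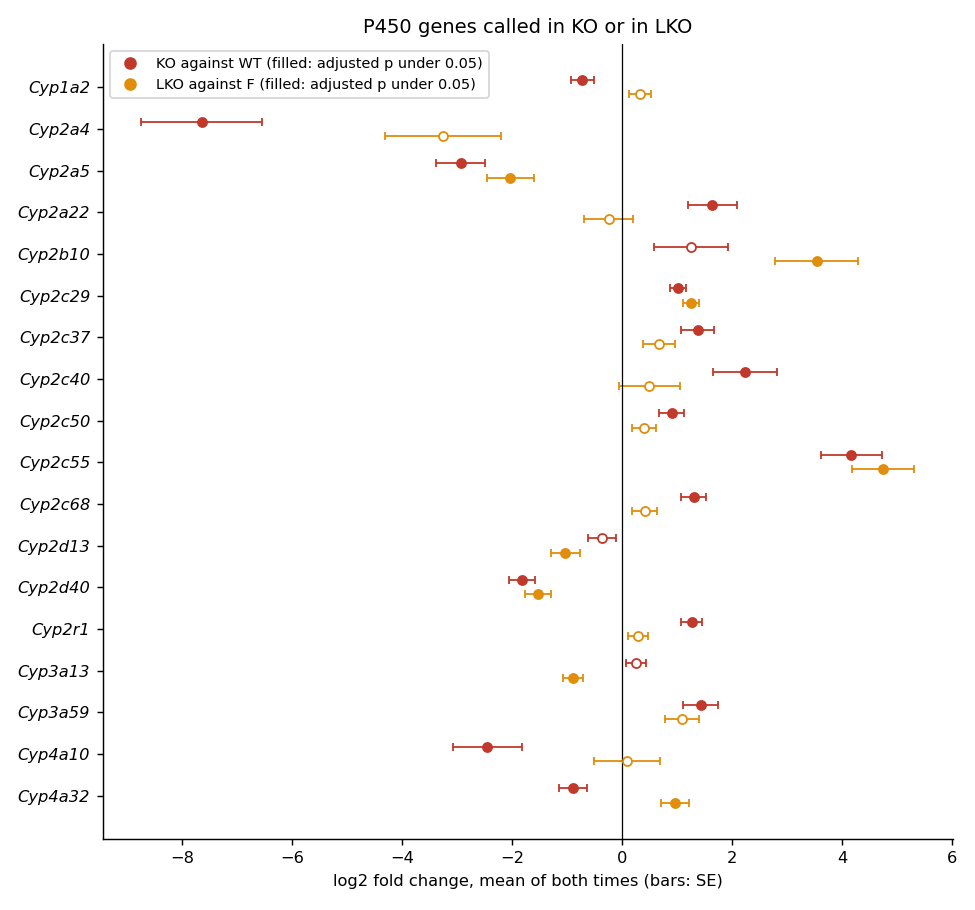
Log2 fold changes with SE, mean of both times, of the 18 P450 genes called in KO against WT or in LKO against F. Filled points passed the test, and the points of Cyp2c29, Cyp2c55, Cyp2a5 and Cyp2d40 are filled on the same side of 0 in both comparisons.

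The Cyp2a genes carried the widest falls. Cyp2a5 hydroxylates coumarin and nicotine, and Cyp2a4, its near copy, hydroxylates testosterone. Their upstream sequences are shown because the windows differ at 4 of 249 compared bases (98.4% identity), while the transcripts differed far in level. The stretches below end at the start site (bases -150 to -1 of Cyp2a4 and -151 to -2 of Cyp2a5) and are taken from RefSeq on build GRCm38.p6, plus strand, with Cyp2a4 at chr7:26307042-26307191 and Cyp2a5 at chr7:26835188-26835337. Capitals mark the 3 bases at which they differ.
Cyp2a4: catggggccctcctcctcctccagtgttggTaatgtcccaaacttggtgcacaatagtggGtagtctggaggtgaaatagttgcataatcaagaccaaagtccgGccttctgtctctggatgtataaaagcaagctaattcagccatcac
Cyp2a5: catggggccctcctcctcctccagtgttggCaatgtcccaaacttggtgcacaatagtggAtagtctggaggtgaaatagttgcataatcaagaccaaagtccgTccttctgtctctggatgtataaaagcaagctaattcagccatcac

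Cyp2a5 rose from CT2 to CT14 in both controls, and no rise was called in either knockout. WT read 23.3, 223 and 133 CPM at CT2 (replicates 1 to 3, in this order throughout) and 2068, 1188 and 2976 CPM at CT14. In F it read 122, 131 and 144 CPM (CT2), then 1223, 993 and 689 CPM (CT14). Every CT14 control library thus lay above every CT2 control library of its genotype. KO read 22.0, 116 and 67.7 CPM (CT2), then 63.4, 53.3 and 77.5 CPM (CT14). LKO read 73.5, 54.9 and 131 CPM (CT2), then 80.8, 91.0 and 92.2 CPM (CT14). At both times, the knockout libraries stayed in the range of the controls at CT2 or below it.

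The rise of Cyp2a5 from CT2 to CT14 was 16.4-fold in WT (log2 4.04 ± 0.66, adjusted p = 0.00137) and 7.33-fold in F (2.87 ± 0.63, adjusted p = 0.0157). In KO (-0.09 ± 0.58, adjusted p = 1) and LKO (0.03 ± 0.58, adjusted p = 1) the estimate was close to 0. The time difference itself was smaller in KO than in WT by 4.13 ± 0.86 on the log2 scale (-4.13, adjusted p = 0.0256). The corresponding difference between LKO and F was -2.85 ± 0.84 and missed the threshold (adjusted p = 0.356). At CT14 Cyp2a5 fell by 5.01 ± 0.69 on the log2 scale in KO (adjusted p = 0.000164) and by 3.46 ± 0.64 in LKO (adjusted p = 0.00562). As the mean of both times it fell in KO (-2.94 ± 0.44, adjusted p = 0.000427) and in LKO (-2.04 ± 0.43, adjusted p = 0.0103), and both of these calls held without any 1 library. The difference of time effects between KO and WT was lost without any 1 of 8 libraries (each KO library at CT14, KO CT2 replicates 2 and 3, WT CT14 replicates 1 and 3, and WT CT2 replicate 3; highest adjusted p = 0.0750). It was also lost without both KO libraries with spermatid transcripts (adjusted p = 0.157) and without the filter on low counts (adjusted p = 0.0624). The time call in F was lost without any 1 of 4 (each F library at CT2 and F CT14 replicate 1; highest adjusted p = 0.0761).

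Cyp2a4 was read chiefly in WT. In WT it stood at 0.168, 22.5 and 25.2 CPM (CT2), then 51.6, 39.6 and 87.6 CPM (CT14). KO read 0, 0 and 0.249 CPM (CT2), then 0.247, 0.362 and 0.296 CPM (CT14), so that WT CT2 replicate 1 was the 1 WT library inside the KO range. As the mean of both times Cyp2a4 fell by 7.65 ± 1.09 on the log2 scale (adjusted p = 0.000338). F itself was low, with 0.183, 0.176 and 0.215 CPM (CT2), then 2.57, 2.61 and 1.78 CPM (CT14), and LKO had at most 0.180 CPM. The LKO estimate of -3.26 ± 1.06 missed the threshold (adjusted p = 0.124). Of the 100-base stretches of Cyp2a4 transcripts, 11.2% recur in Cyp2a5. With the counts of both genes summed, the log2 ratio of group means was -3.04 for KO against WT and -2.04 for LKO against F.

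The other Cyp2a genes behaved otherwise. Cyp2a22 was weak but higher in KO, with 5.84, 3.80 and 15.8 CPM (CT2), then 3.49, 1.59 and 9.37 CPM (CT14). WT read 0.567, 1.88 and 2.60 CPM (CT2), then 3.37, 1.48 and 2.68 CPM (CT14), and the groups overlapped at CT14 and not at CT2. It rose by 1.64 ± 0.45 on the log2 scale (adjusted p = 0.0350), a call lost without KO replicate 3 at CT14 (adjusted p = 0.128) or at CT2 (0.122), WT CT14 replicates 2 (0.0976) or 3 (0.0694), or WT CT2 replicates 1 (0.0822) or 2 (0.0646). Cyp2a12 did not pass the test in KO (-0.15 ± 0.38, adjusted p = 0.928) or LKO (-0.22 ± 0.38, adjusted p = 0.942). In WT CT2 replicate 1 all of Cyp2a4, Cyp2a5, Cyp2a12 and Cyp2a22 were the lowest of their group, and that library also had the highest summed level of acute phase and interferon genes in WT (13970 CPM against at most 4853 CPM in the others). The part of that library in the WT values was not tested beyond leaving it out.

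**Figure D3:**
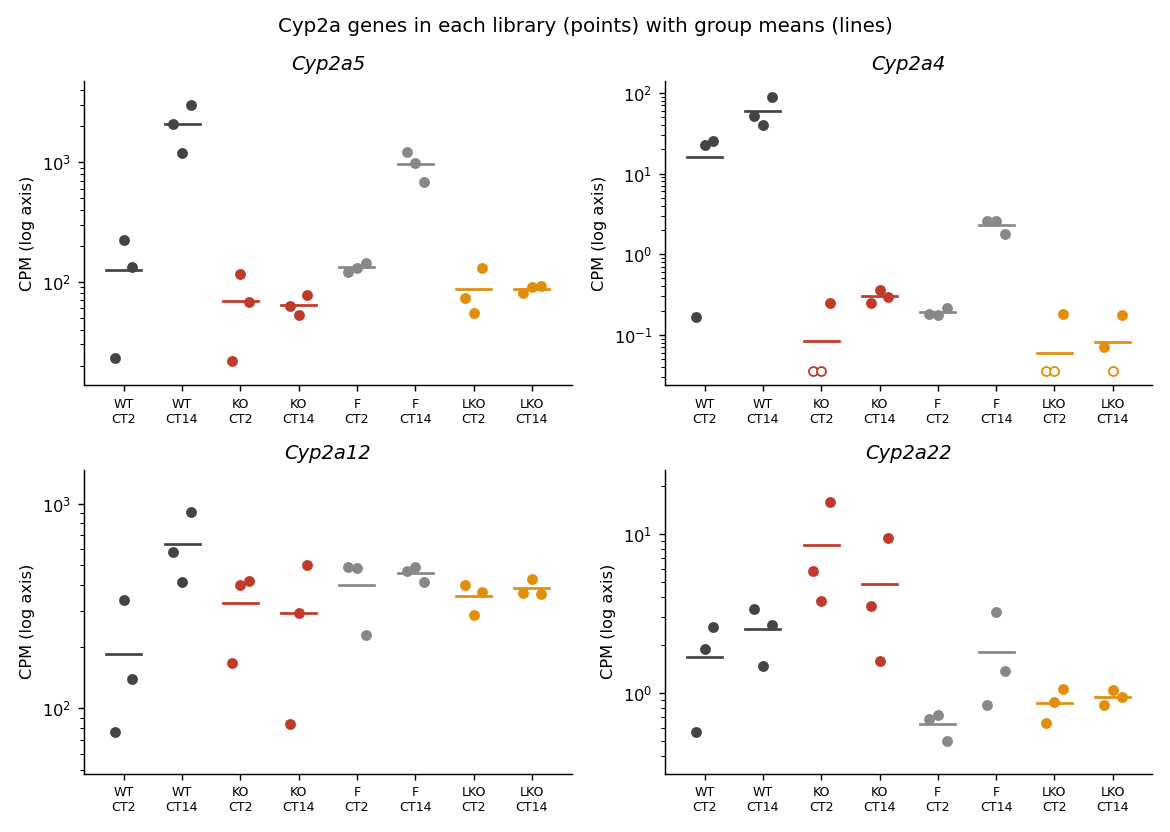
CPM of the 4 Cyp2a genes in each of 24 libraries (points) and group means (lines), log axis. Open circles are libraries at 0, drawn below the lowest level above 0. Cyp2a5 reads 689 to 2976 CPM in the controls at CT14 and at most 131 CPM in KO and LKO at either time.

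Of 13 tested Cyp2c genes 6 rose in KO and none was called lower, with estimates from -0.81 (Cyp2c23) to 4.16 (Cyp2c55) on the log2 scale. This is the largest subfamily, and its enzymes oxidise arachidonic acid and many drugs. The 6 called in KO were Cyp2c29, Cyp2c37, Cyp2c40, Cyp2c50, Cyp2c55 and Cyp2c68. Summed over the subfamily, the level was 3954 ± 896 TPM at CT2 and 3436 ± 446 TPM at CT14 in WT (SD, n = 3) and 7526 ± 1506 and 7114 ± 98.5 TPM in KO. LKO had 5815 ± 287 and 5802 ± 403 TPM against 3138 ± 500 and 3246 ± 720 TPM in F. The lowest knockout library lay above the highest control library in each of these comparisons. The sum over all P450 genes, Cyp2c included, lay apart from F in LKO too. LKO had 19768 to 22854 (CT2) and 20459 to 24013 TPM (CT14), F 12812 to 14634 and 16376 to 17757 TPM. In KO that total lay apart at CT2 (lowest KO 22325, highest WT 20267 TPM) and overlapped at CT14 (20380 and 24231 TPM). TPM do not carry the TMM factors, which were 0.92 to 0.99 in F and 0.95 to 1.11 in LKO.

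Cyp2c29 gave the steadiest rise. WT read 1406, 1608 and 1509 CPM (CT2), then 1544, 1255 and 1500 CPM (CT14), and KO read 4018, 2344 and 3014 CPM and 3366, 2947 and 2142 CPM. F read 1271, 1131 and 833 CPM and 833, 927 and 996 CPM, and LKO 2197, 1980 and 3058 CPM and 2165, 2530 and 2266 CPM. No knockout library overlapped its controls at either time. The rise was 2.02-fold in KO (log2 1.01 ± 0.15, adjusted p = 0.000243) and 2.38-fold in LKO (1.25 ± 0.15, adjusted p = 3.69e-05). The effects in KO and LKO differed by -0.24 ± 0.21 (adjusted p = 0.943), and no time effect was called in any genotype.

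Cyp2c55 makes hydroxylated arachidonic acid and is known to respond to CAR and PXR. WT read 2.92, 8.29 and 1.3 CPM (CT2), then 1.33, 0.669 and 0.945 CPM (CT14), and KO 55.7, 7.27 and 36.0 CPM and 30.9, 63.0 and 26.0 CPM. F read 6.62, 4.42 and 1.56 CPM and 2.83, 1.12 and 1.51 CPM, and LKO 81.4, 40.9 and 112 CPM and 62.1, 61.0 and 86.2 CPM. KO CT2 replicate 2, at 7.27 CPM, was the 1 knockout library that reached down into its controls. The rise was 17.9-fold in KO (log2 4.16 ± 0.56, adjusted p = 0.000151) and 26.7-fold in LKO (4.74 ± 0.57, adjusted p = 7.21e-05). Neither call, nor those of Cyp2c29, was lost without any 1 library.

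The other 4 Cyp2c genes called in KO were not called in LKO, and none had a called difference between the knockouts. Cyp2c68 read 150, 389 and 140 CPM (CT2), then 139, 125 and 112 CPM (CT14) in WT, and 461, 296 and 436 CPM and 358, 492 and 452 CPM in KO. It rose by 1.3 ± 0.23 on the log2 scale in KO (adjusted p = 0.00119), and its LKO estimate was 0.41 ± 0.22 (adjusted p = 0.493). WT CT2 replicate 2 was the 1 WT library inside the KO range. Cyp2c37, an epoxygenase, read 99.3, 397 and 132 CPM and 127, 74.8 and 140 CPM in WT, and 447, 247 and 463 CPM and 622, 331 and 287 CPM in KO. It rose by 1.37 ± 0.30 (adjusted p = 0.00783), against 0.67 ± 0.29 in LKO (adjusted p = 0.316). Again WT CT2 replicate 2 stood inside the KO range.

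Cyp2c50, also an epoxygenase, read 445, 968 and 373 CPM (CT2), then 391, 307 and 386 CPM (CT14) in WT, and 1127, 422 and 1031 CPM and 909, 853 and 839 CPM in KO. It rose by 0.90 ± 0.22 (adjusted p = 0.0184), a call lost without KO CT2 replicates 1 (0.0563) or 3 (0.0518), WT CT14 replicate 2 (0.0573), or WT CT2 replicates 1 (0.0576) or 3 (0.0563). Cyp2c40 read 19.3, 289 and 16.6 CPM and 29.6, 25.0 and 29.3 CPM in WT, and 216, 204 and 438 CPM and 96.0, 220 and 387 CPM in KO. It rose by 2.23 ± 0.58 (adjusted p = 0.0298), a call lost without KO replicate 3 at CT14 (0.0746) or CT2 (0.0720), WT CT14 replicates 1 (0.0708), 2 (0.0803) or 3 (0.0679), or WT CT2 replicate 1 (0.0525). In WT CT2 replicate 2 this gene, its relative Cyp2c69 (134 CPM against 2.14 to 8.02 CPM in the other WT libraries), Cyp2c68, Cyp2c37 and Cyp2c50 were each the highest of WT. Since Cyp2c40, Cyp2c67, Cyp2c68 and Cyp2c69 share sequence, their counts were also summed, and the log2 ratio of group means was 0.85 for KO against WT and 0.43 for LKO against F.

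Cyp2c39 was split between libraries in a way that the comparisons did not call. It stood under 2 CPM in 13 libraries (at most 1.97 CPM) and over 45 CPM in the other 11 (at least 45.7 CPM). Of the 12 F and LKO libraries 11 were low, the exception being F CT14 replicate 2 at 94.8 CPM. WT CT2 replicate 2 (1.13 CPM) and KO CT14 replicate 2 (1.97 CPM) were the low libraries among WT and KO. Low and high libraries thus stood side by side within WT CT2, KO CT14 and F CT14.

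**Figure D4:**
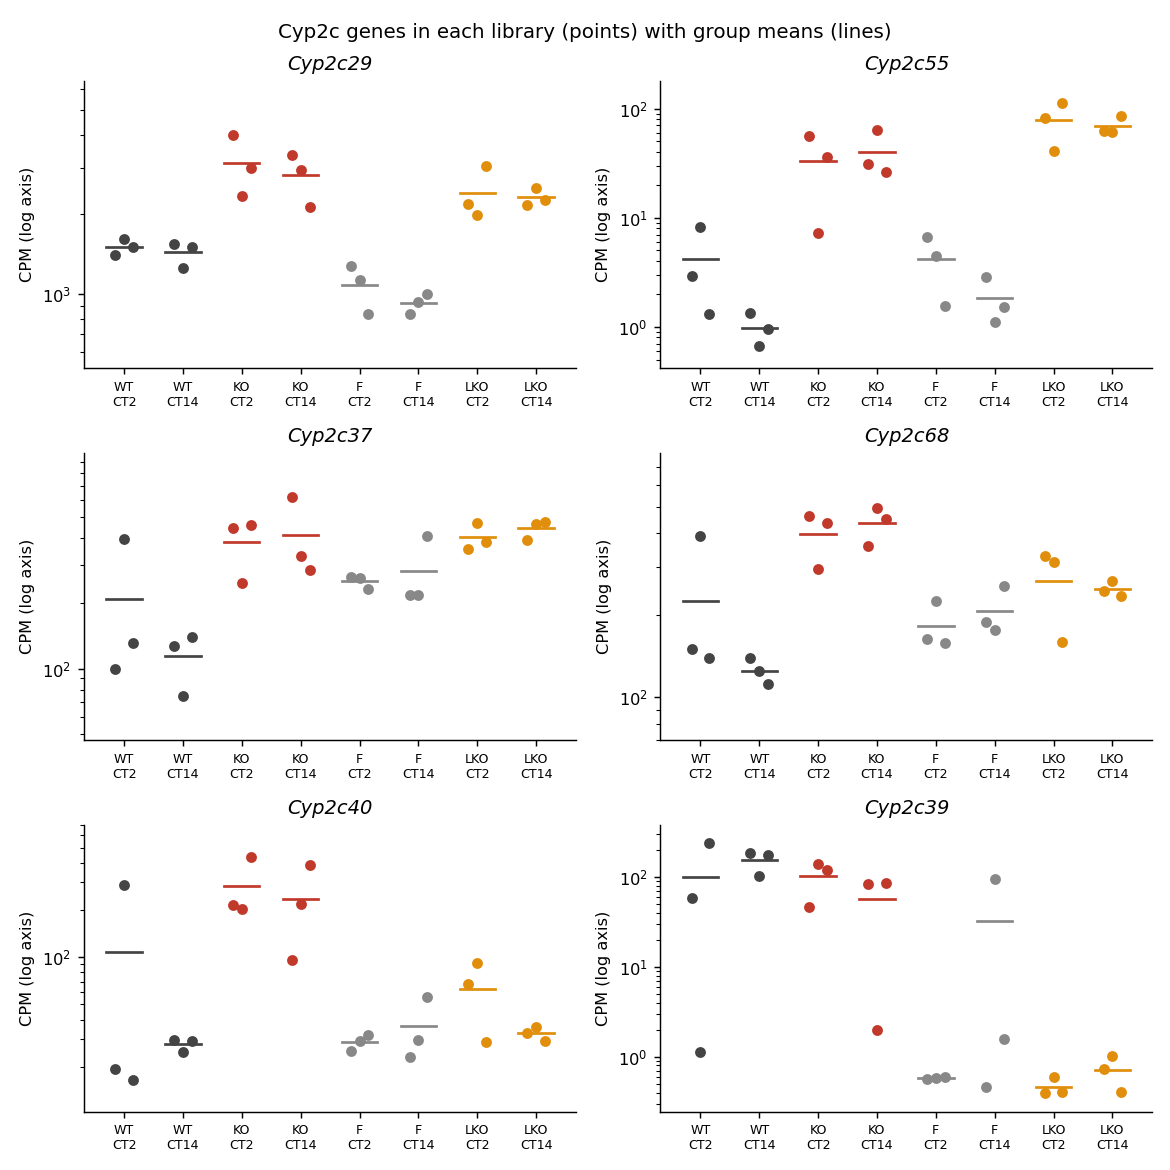
CPM of 6 Cyp2c genes in each of 24 libraries (points) and group means (lines), log axis. Cyp2c29 reads 2142 to 4018 CPM in KO against 1255 to 1608 CPM in WT, and Cyp2c39 falls into low and high libraries within groups.

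Upstream windows were searched for short motifs of clock-related factors, on both strands, in the 250 bases before each RefSeq start site (GRCm38.p6). Of the 76 genes 62 had a window, 69 windows in all. The letters CACGTG (E-box, bound by BMAL1 with CLOCK) stood in 2 windows, of Cyp2j6 and Cyp4v3, against 6.02% of all 32851 windows of that length. The letters TTATGTAA or TTACGTAA (D-box, bound by DBP, TEF and HLF) stood in 0 of the 69, against 0.931% of all. The letters AGGTCA (the core of the site of the REV-ERB receptors and of many other nuclear receptors) stood in 17 of the 69, against 14.02% of all. Those 17 windows belonged to 16 genes, of which 12 were tested and 2 (Cyp2c29 and Cyp3a59) were called in the mean of both times, of 18 called P450 genes in all. The window of Cyp2c55 did not hold these letters. A match is a description of these letters and shows no binding.

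The Cyp2b genes, known for their induction by phenobarbital through CAR, were low throughout. Cyp2b10 rose in LKO and was not called in KO. F read 0.411, 0.127 and 0.140 CPM (CT2), then 0, 0.487 and 2.45 CPM (CT14), and LKO read 3.51, 4.32 and 8.92 CPM and 3.84, 6.17 and 5.82 CPM. No LKO library overlapped F, and the rise was 11.6-fold (log2 3.53 ± 0.76, adjusted p = 0.0127). WT spread over the LKO range, with 3 of 6 libraries below every LKO library, at 1.73, 2.48 and 4.65 CPM and 3.25, 22.8 and 9.05 CPM, and KO at 11.2, 4.83 and 16.1 CPM and 27.2, 17.9 and 9.44 CPM. F was 3.65 ± 0.76 lower than WT on the log2 scale (-3.65, adjusted p = 0.0180). The KO estimate was 1.25 ± 0.68 (adjusted p = 0.366), and the difference between the KO and LKO effects was -2.29 ± 0.98 (adjusted p = 0.544). Without the 3 libraries low in Ddx3y the LKO call was lost (adjusted p = 0.0784).

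Cyp2b9, the other detected gene of this subfamily with a TPM mean above 1, varied more within groups than between them. In WT it read 4.07, 2.15 and 57.4 CPM (CT2), then 1.09, 1.16 and 5.05 CPM (CT14), and 1.05, 0.973 and 8.16 CPM and 18.4, 1.92 and 13.3 CPM in KO. F read 0.331, 0.117 and 22.2 CPM and 0, 8.49 and 10.4 CPM, and LKO 0.0626, 0.254 and 0.921 CPM and 0.143, 0.468 and 0.0604 CPM. Neither the KO estimate (-0.22 ± 1.25, adjusted p = 0.976) nor the LKO estimate (-4.52 ± 1.48, adjusted p = 0.132) passed the test. Each LKO library was under 1 CPM, and F libraries lay on both sides of that level.

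The Cyp3a genes, which clear a broad range of drugs and steroids under PXR, changed little at the top of their range. Cyp3a11 read 2836, 3323 and 4814 CPM (CT2), then 3462, 3910 and 3668 CPM (CT14) in WT, and 4187, 2513 and 3660 CPM and 4319, 4173 and 2600 CPM in KO. F read 3272, 2688 and 1138 CPM and 3088, 2299 and 1916 CPM, and LKO 3146, 3268 and 2030 CPM and 2407, 3545 and 3488 CPM. The log2 estimates were -0.04 ± 0.23 in KO (adjusted p = 0.978) and 0.31 ± 0.23 in LKO (adjusted p = 0.687), and the groups overlapped.

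Cyp3a13 fell in LKO. F read 101, 162 and 93.5 CPM (CT2), then 138, 190 and 233 CPM (CT14), and LKO read 89.1, 104 and 71.9 CPM and 75.4, 71.4 and 71.4 CPM. The groups overlapped at CT2 and not at CT14. The fall was -0.90 ± 0.18 on the log2 scale (adjusted p = 0.00589) and held without any 1 library. WT read 98.6, 168 and 86.2 CPM and 101, 92.4 and 109 CPM, and KO 98.3, 67.4 and 119 CPM and 174, 179 and 174 CPM. The KO estimate was 0.25 ± 0.18 (adjusted p = 0.548), and the difference between the KO and LKO effects, 1.14 ± 0.25, did not pass the test (adjusted p = 0.0959). Cyp3a59 rose in KO, where it read 45.9, 51.8 and 80.3 CPM and 77.5, 35.2 and 55.1 CPM, above every WT library (26.6, 30.3 and 26.2 CPM and 20.2, 23.3 and 6.28 CPM). The rise was 1.43 ± 0.32 (adjusted p = 0.0102), with 1.09 ± 0.31 in LKO (adjusted p = 0.0689). Summed with its more abundant relative Cyp3a25, the log2 ratio of group means was 0.13 in KO.

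Cyp2d40 fell in both knockouts. WT read 94.5, 62.7 and 88.8 CPM (CT2), then 70.8, 67.2 and 64.8 CPM (CT14), and KO 25.8, 15.5 and 25.1 CPM and 27.6, 18.8 and 13.7 CPM. F read 77.9, 143 and 112 CPM and 130, 63.8 and 73.5 CPM, and LKO 29.3, 25.4 and 62.3 CPM and 30.01, 31.9 and 29.2 CPM. No knockout library reached its controls. The fall was 3.54-fold in KO (log2 -1.82 ± 0.24, adjusted p = 7.3e-05) and 2.89-fold in LKO (-1.53 ± 0.24, adjusted p = 0.000602), and these calls held without any 1 library. None of the 100-base stretches of this gene recurs in another P450 gene.

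Of the other 8 tested Cyp2d genes 1, Cyp2d13, was called lower in LKO and none in KO. Cyp2d26 had estimates of -0.53 ± 0.19 in KO (adjusted p = 0.118) and -0.54 ± 0.19 in LKO (adjusted p = 0.161). Cyp2d13 in LKO read 49.4, 48.6 and 42.1 CPM (CT2), then 73.9, 64.7 and 71.4 CPM (CT14), against 162, 60.3 and 52.7 CPM and 85.9, 191 and 170 CPM in F. The fall of 1.03 ± 0.26 on the log2 scale (-1.03, adjusted p = 0.0287) was lost without any 1 of 9 libraries (each LKO library, F CT2 replicate 1, and F CT14 replicates 2 and 3; highest adjusted p = 0.0962). WT read 142, 163 and 95.6 CPM and 181, 192 and 216 CPM, and KO 139, 141 and 137 CPM and 62.5, 118 and 159 CPM (KO -0.37 ± 0.25, adjusted p = 0.519). Cyp2d9, the most abundant of the subfamily, was not called. It read 1427, 1113 and 1435 CPM and 1915, 2107 and 1854 CPM in WT, and 1366, 1601 and 758 CPM and 1510, 1528 and 1143 CPM in KO. F had 1328, 982 and 1372 CPM and 1784, 841 and 1392 CPM, and LKO 1433, 1491 and 2531 CPM and 1719, 1867 and 2080 CPM. Its estimates were -0.29 ± 0.19 in KO (adjusted p = 0.493) and 0.53 ± 0.19 in LKO (adjusted p = 0.184).

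Cyp2r1, the vitamin D 25-hydroxylase of liver, rose in KO. WT read 5.33, 5.70 and 5.34 CPM (CT2), then 5.80, 3.46 and 4.84 CPM (CT14), and KO 16.4, 11.6 and 11.9 CPM and 11, 12.9 and 9.57 CPM, with no overlap. The rise was 2.40-fold (log2 1.27 ± 0.19, adjusted p = 0.000276) and held without any 1 library. F read 8.84, 12.2 and 4.58 CPM and 11.4, 9.89 and 9.21 CPM, and LKO 15.6, 12.9 and 9.81 CPM and 10.1, 11 and 9.15 CPM. The LKO estimate was 0.28 ± 0.19 (adjusted p = 0.626), and the KO and LKO effects differed by 0.98 ± 0.26 (adjusted p = 0.190). F was itself higher than WT by 0.88 ± 0.19 (adjusted p = 0.0176), a call lost without WT CT14 replicate 2 (adjusted p = 0.0537), so that the controls did not start from the same level.

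The single-gene subfamilies of family 2 were not called in either knockout, Cyp2r1 apart. Cyp2e1 read 3623, 4950 and 4928 CPM (CT2), then 6708, 6632 and 7648 CPM (CT14) in WT, and 2527, 3033 and 5478 CPM and 6095, 6008 and 6146 CPM in F. KO read 6280, 5443 and 5729 CPM and 7182, 3755 and 4802 CPM, and LKO 4500, 4559 and 6972 CPM and 5315, 5634 and 6375 CPM. In both controls every CT14 library was above every CT2 library, but the time estimates did not pass the test (0.64 ± 0.25, adjusted p = 0.265 in WT, and 0.73 ± 0.25, adjusted p = 0.150 in F). Cyp2f2 read 1828, 1153 and 1462 CPM and 1020, 1710 and 1745 CPM in WT, and 1175, 1527 and 1333 CPM and 1293, 1176 and 1299 CPM in KO. F had 1034, 946 and 737 CPM and 1037, 751 and 814 CPM, and LKO 758, 582 and 1477 CPM and 795, 757 and 706 CPM. Cyp2f2 overlapped between each knockout and its control, and F lay mostly below WT.

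Cyp2j5, an epoxygenase, was close to even over the groups. It read 456 to 535 CPM in WT, 436 to 654 CPM in KO, 174 to 503 CPM in F and 313 to 524 CPM in LKO. Cyp2u1, a fatty acid hydroxylase, read 11.6 to 38.9 CPM in WT, 11.1 to 27.1 CPM in KO, 6.53 to 40.3 CPM in F and 10.1 to 45.3 CPM in LKO. With both times pooled, these ranges overlapped between each knockout and its control. At CT14 taken alone Cyp2u1 did not overlap, at 18.5 to 24.6 TPM in LKO and 3.41 to 11.1 TPM in F, without a call. Cyp2g1, Cyp2s1 and Cyp2t4 were weak, with highest libraries of 7.40, 1.05 and 0.238 CPM. Cyp2g1 was higher at CT14 than at CT2 in every WT library (7.40, 2.23 and 4.23 against 0.0719, 1.61 and 0.0977 CPM) and every F library, without a call (WT 2.96 ± 1.15, adjusted p = 0.247).

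Cyp1a2, which oxidises caffeine and aromatic amines under the receptor AHR, fell in KO at CT14. WT read 462, 949 and 573 CPM (CT2), then 1024, 769 and 854 CPM (CT14), and KO 665, 736 and 417 CPM and 416, 360 and 277 CPM. The groups overlapped at CT2 and not at CT14, where the fall was -1.33 ± 0.30 on the log2 scale (adjusted p = 0.00869), lost without KO CT14 replicate 3 (adjusted p = 0.0578). As the mean of both times it was -0.73 ± 0.21 (adjusted p = 0.0428), lost without any 1 of 16 libraries (highest adjusted p = 0.135). F read 579, 442 and 584 CPM and 699, 763 and 654 CPM, and LKO 661, 566 and 1381 CPM and 656, 674 and 713 CPM (LKO 0.32 ± 0.21, adjusted p = 0.603). The KO and LKO effects differed by -1.05 ± 0.29 (adjusted p = 0.207). Cyp1b1 stayed between 0.385 and 1.32 CPM in all libraries and was not called.

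Family 4 held both the falls in KO and the 1 gene with opposite calls. Cyp4a10 hydroxylates fatty acids under PPAR alpha, and in WT it read 93.7, 402 and 638 CPM (CT2), then 280, 385 and 189 CPM (CT14). KO read 34.7, 57.8 and 35.8 CPM and 172, 41.8 and 37.4 CPM, which overlapped WT in KO CT14 replicate 1. The fall was 5.48-fold (log2 -2.45 ± 0.63, adjusted p = 0.0287), lost without any 1 of 8 of the 12 libraries of the comparison (replicates 2 and 3 of KO CT14 and WT CT2, 1 and 3 of KO CT2, and 1 and 2 of WT CT14; highest adjusted p = 0.0780). F read 88.3, 46.3 and 120 CPM and 178, 228 and 35.2 CPM, and LKO 22.2, 20.9 and 131 CPM and 97.5, 226 and 398 CPM, with an estimate of 0.08 ± 0.60 (adjusted p = 0.996).

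Cyp4a32, close in sequence to Cyp4a10, read 27.7, 42.8 and 47.7 CPM (CT2), then 30.7, 38.4 and 87.4 CPM (CT14) in WT, and 25.0, 18.3 and 24.3 CPM and 37.8, 17.8 and 23.3 CPM in KO. F read 11.8, 12.5 and 14 CPM and 27.7, 21.1 and 15.9 CPM, and LKO 13.7, 21.1 and 24.8 CPM and 31.1, 62.9 and 62.8 CPM. It was called lower in KO (-0.90 ± 0.26, adjusted p = 0.0466) and higher in LKO (0.96 ± 0.26, adjusted p = 0.0484). The difference between these effects was -1.85 ± 0.37 (adjusted p = 0.0521) and missed the threshold. F was lower than WT by 1.45 ± 0.26 (-1.45, adjusted p = 0.00829), so that the controls of the comparisons did not start level. The KO call was lost without any 1 of 17 libraries and the LKO call without any 1 of 16 (highest adjusted p = 0.165 and 0.137). With Cyp4a10, Cyp4a31 and Cyp4a32 summed, the log2 ratio of group means was -2.01 in KO and 0.31 in LKO.

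Cyp4a14, another PPAR alpha target and the most abundant Cyp4a gene, spread from 9.05 CPM (F CT14 replicate 3) to 674 CPM (KO CT14 replicate 1) and was not called in KO (-0.14 ± 0.77, adjusted p = 0.977) or LKO (0.97 ± 0.78, adjusted p = 0.746). The other subfamilies moved less. Cyp4f14, which inactivates leukotriene B4, read 283 to 467 CPM in WT, 316 to 455 CPM in KO, 211 to 356 CPM in F and 231 to 465 CPM in LKO. Cyp4v3, a fatty acid hydroxylase, read 310 to 485 CPM in WT, 241 to 308 CPM in KO, 188 to 434 CPM in F and 301 to 453 CPM in LKO. For Cyp4v3 every KO library was thus below every WT library, but the estimate of -0.38 ± 0.15 did not pass the test (adjusted p = 0.175). In TPM, LKO lay above F at each time, at 150 to 219 against 81.0 to 140 (CT2) and 183 to 205 against 110 to 163 (CT14). The LKO estimate of 0.32 ± 0.15 did not pass the test either (adjusted p = 0.389). Cyp4b1 read 13.1 to 17.6 CPM in WT and 7.12 to 19.9 CPM in KO, and 8.61 to 24.3 CPM in F and 14.7 to 21.3 CPM in LKO.

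**Figure D5:**
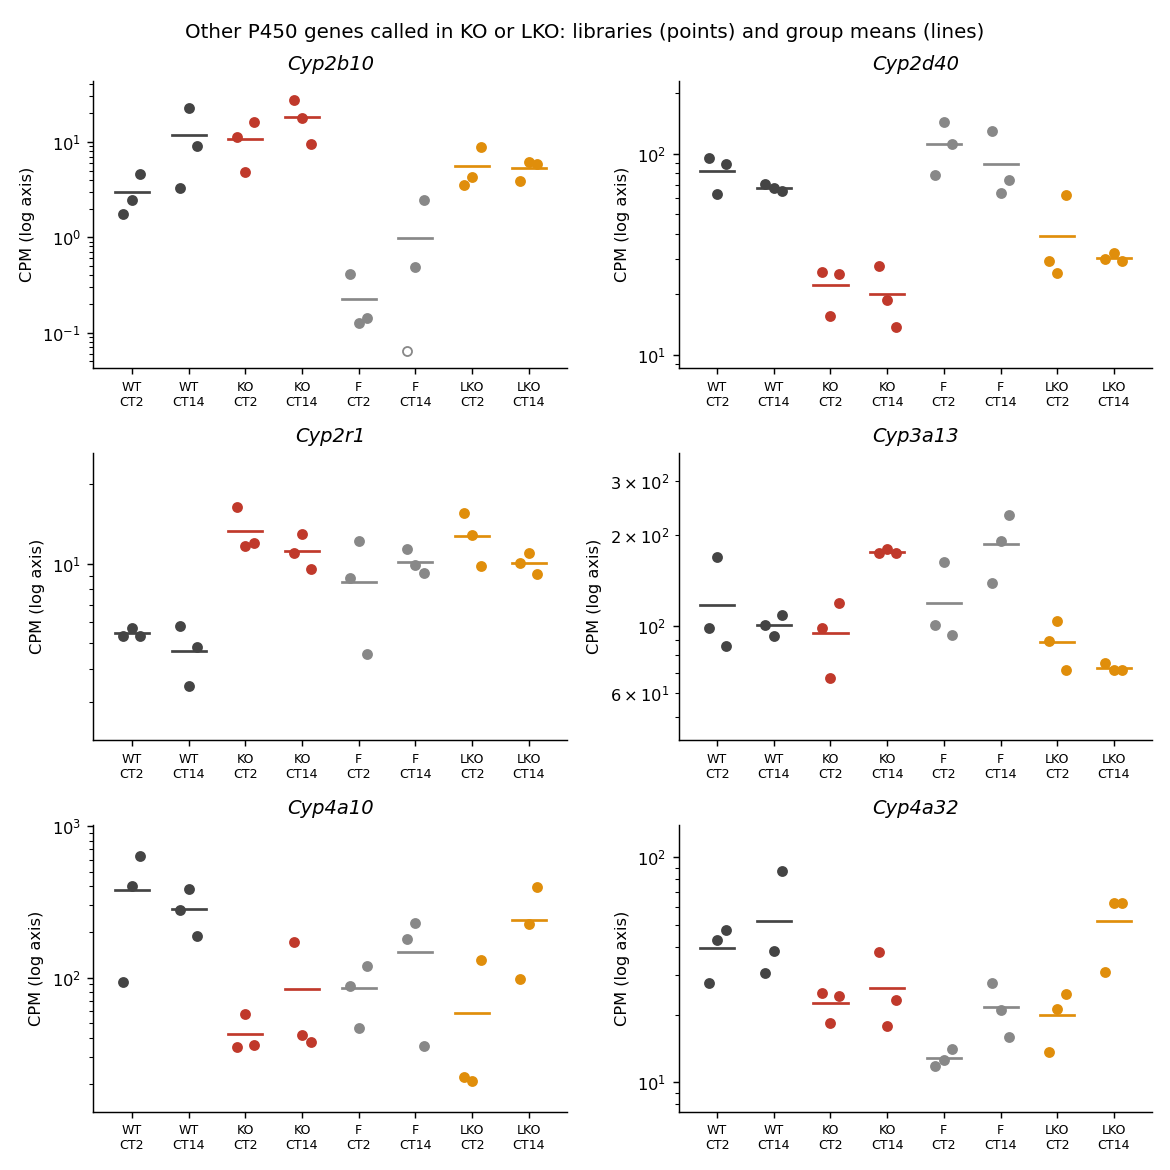
CPM of 6 P450 genes of other subfamilies called in KO or LKO, in each of 24 libraries (points) with group means (lines), log axis. The open circle is F CT14 replicate 1, at 0 for Cyp2b10. Cyp2d40 lies at 13.7 to 27.6 CPM in KO and 62.7 to 94.5 CPM in WT.

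Time of day moved few P450 genes past the threshold. Between CT2 and CT14, 1 gene was called in WT (all genes 2.54%) and 1 in F (all genes 2.66%), in both cases Cyp2a5. In KO the count was 0 with edgeR (all genes 0%) and 0 with DESeq2, with 3 genes at an unadjusted p under 0.05 (4.84%, all genes 3.67%). In LKO it was 0 with edgeR (all genes 0.848%) and 2 with DESeq2, with 7 at an unadjusted p under 0.05 (11.3%, all genes 12.0%). A difference in the time effect was called for 1 gene between KO and WT (all genes 0.799%), again Cyp2a5. It was called for 0 between LKO and F with edgeR (all genes 0.112%) and 1 with DESeq2, with 6 at an unadjusted p under 0.05 (9.68%, all genes 6.22%). The DESeq2 counts have no background beside them, as the shares over all genes with that method are not given here. Groups without overlap between CT2 and CT14 were found for 15 of 62 genes in WT (10 higher and 5 lower at CT14) and 13 in F (12 higher and 1 lower), and for 3 in KO and 8 in LKO. These are 24.2%, 21.0%, 4.84% and 12.9% of the P450 genes, against 21.0%, 19.2%, 7.63% and 20.7% of all genes tested, so that they stood near or below the background.

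The test of KO effects against LKO effects called none of the 62 genes with edgeR (all genes 0.107%) and 4 with DESeq2, and 17 stood at an unadjusted p under 0.05 (27.4%, all genes 8.12%). The share of all genes called with DESeq2 is not given here, so its count has no background beside it. The smallest adjusted p belonged to Cyp4a32 and Cyp3a13. These data therefore leave 10 genes called in KO and not in LKO, and 3 in LKO and not in KO, without a called difference between the knockouts. Of the 15 genes called in KO, 11 had an LKO estimate of the same sign. In LKO 41 of the 62 estimates lay above 0, and the same share over all genes called in KO was not computed.

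The control genotypes differed in P450 levels. F was lower than WT for 8 genes (all genes 0.912%) and higher for 1 (all genes 1.63%), with 2.54% of all genes called either way, and the median log2 difference of the 62 was -0.33, against 0.00 over all genes. Besides Cyp2a4, Cyp2b10, Cyp4a32 and Cyp2r1, the called genes were Cyp2c38 (-1.55 ± 0.38, adjusted p = 0.0332), Cyp2d22 (-0.91 ± 0.15, adjusted p = 0.00446), Cyp2f2 (-0.75 ± 0.19, adjusted p = 0.0400), Cyp4f15 (-0.71 ± 0.14, adjusted p = 0.0127) and Cyp2c29 (-0.56 ± 0.15, adjusted p = 0.0479). The calls of Cyp2c29, Cyp2f2 and Cyp2c38 were lost without any 1 of 18, 11 and 8 libraries. F and WT mice come from separate crosses, so that genotype, litter and line cannot be told apart. This comparison shares WT with KO against WT and F with LKO against F.

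Grouped by the receptors that are known to drive them, the P450 genes showed no single direction. Of 13 genes known as CAR and PXR targets, 3 were higher (all genes 3.11%) and 2 lower (all genes 2.29%) in KO. In LKO 3 were higher (all genes 1.7%) and 2 lower (all genes 1.43%). The same shares over all genes apply to the other lists of this paragraph. The risers in both knockouts were Cyp2c29 and Cyp2c55, joined by Cyp2c37 in KO and Cyp2b10 in LKO. Cyp2a5 fell in both, joined by Cyp2a4 in KO and Cyp3a13 in LKO. Of 4 PPAR alpha targets, all Cyp4a genes, 2 were lower in KO and 1 was higher in LKO. Of 3 AHR targets, 1 (Cyp1a2) was lower in KO and none was called in LKO. Of 10 genes listed as known from female liver 1 rose (Cyp2c40) and 1 fell (Cyp2a4) in KO and 1 rose in LKO (Cyp2b10). Of 4 listed as known from male liver none was called in either. The female list includes Cyp3a41a and Cyp3a41b and the male list Cyp4a12a and Cyp4a12b, which all fell outside the rule of the set. These lists overlap.

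The receptor genes were counted in the same way. Of 21 xenobiotic and nuclear receptor genes, 2 were lower in KO (all genes 2.29%) and 1 in LKO (all genes 1.43%). None was called higher in either mean. At CT14 in KO 1 was higher and 4 were lower (all genes 5.31% either way). PXR (Nr1i2) fell by 0.41 ± 0.11 on the log2 scale in KO (adjusted p = 0.0265). It read 104 to 106 CPM in WT at CT14 and 55.4 to 61.8 CPM in KO at CT14, where the fall was -0.85 ± 0.15 (adjusted p = 0.00139). CAR (Nr1i3) fell at CT14 in KO (-0.80 ± 0.21, adjusted p = 0.0245). The oestrogen receptor gene Esr1 fell in KO (-1.11 ± 0.25, adjusted p = 0.00955) and in LKO (-1.83 ± 0.25, adjusted p = 0.000160). In the controls Nr1i2 was higher at CT14 than at CT2 (WT 0.86 ± 0.15, adjusted p = 0.00199, and F 0.95 ± 0.15, adjusted p = 0.00129). The part of these receptors in the P450 levels was not tested.

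Genes of P450 electron partners, listed with epoxide hydrolase genes, and genes of haem synthesis and breakdown were also counted. Over time, 1 of 8 genes of the electron partner list (Por) and 1 of 12 haem genes (Alas1) were called in WT (all genes 2.54%). The same genes were called in F (all genes 2.66%). Por, the reductase that feeds electrons to every microsomal P450, read 158, 189 and 130 CPM (CT2), then 612, 676 and 799 CPM (CT14) in WT, and 117 to 216 CPM in KO at either time. In F it read 82.1, 102 and 215 CPM and 437, 485 and 568 CPM, and in LKO 89.0 to 221 CPM at either time. Its rise to CT14 was 2.13 ± 0.34 in WT (adjusted p = 0.000875) and 1.90 ± 0.34 in F (adjusted p = 0.00333), and at CT14 it fell in KO (-1.95 ± 0.34, adjusted p = 0.00118) and LKO (-1.75 ± 0.34, adjusted p = 0.00635). Of the 8 genes in its list, 2 were lower in KO (Por, -0.98 ± 0.23, adjusted p = 0.0155, and the epoxide hydrolase gene Ephx2, -0.79 ± 0.14, adjusted p = 0.00128) and none was called in LKO. Alas1, which starts haem synthesis, rose at CT14 in WT (3.11 ± 0.58, adjusted p = 0.00381) and F (3.01 ± 0.57, adjusted p = 0.00696). Of 12 haem genes 2 were higher in KO, Hmox2 (0.42 ± 0.10, adjusted p = 0.0186) and Uros (0.47 ± 0.13, adjusted p = 0.0354), and none was called in LKO. Over all genes tested, 3.11% were called higher and 2.29% lower in KO.

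Clock output factors, some of which are known to act on P450 genes, were called in both directions. Of 9 such genes, 0 were called higher and 3 lower in KO (all genes 3.11% and 2.29%). In LKO 1 was higher and 2 lower (all genes 1.7% and 1.43%). Over time, 5 were higher and 1 lower at CT14 in WT, with the same counts in F (all genes 2.54% and 2.66% either way). Dbp, a PAR bZIP factor that binds D-boxes, rose from CT2 to CT14 by 5.85 ± 0.62 in WT (adjusted p = 9.38e-06) and by 5.26 ± 0.60 in F (adjusted p = 4.27e-05), and Tef by 2.88 ± 0.19 and 3.07 ± 0.19. These rises were smaller in KO than in WT, by -6.12 ± 0.77 for Dbp (adjusted p = 0.000240) and -3.11 ± 0.25 for Tef (adjusted p = 6.63e-07). Of the 9 genes, 3 had a time effect called lower in KO than in WT (all genes 0.799% either way). For LKO against F the count was 2 lower (all genes 0.112% either way). The REV-ERB genes fell in both knockouts. The log2 fold change of Nr1d1 was -3.11 ± 0.39 in KO (adjusted p = 5.55e-05) and -1.69 ± 0.37 in LKO (adjusted p = 0.0122), and that of Nr1d2 was -2.80 ± 0.23 and -1.54 ± 0.22. Bhlhe41 fell in KO (-5.10 ± 0.85, adjusted p = 0.000835), and Tef rose in LKO (0.74 ± 0.12, adjusted p = 0.00124). Whether these factors had a part in the P450 levels was not tested. Of 10 growth hormone signalling genes none was called in either mean.

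Few markers of where hepatocytes sit in the lobule were called. Of 10 pericentral genes 1, Oat, was higher in KO (0.94 ± 0.20, adjusted p = 0.00799) and in LKO (0.96 ± 0.20, adjusted p = 0.00984). Of 10 periportal genes 1, Aldh1b1, was lower in KO (-0.98 ± 0.22, adjusted p = 0.00985) and none was called in LKO. Over all genes tested, 3.11% were called higher and 2.29% lower in KO, and 1.7% higher in LKO. The pericentral genes summed to 2735 to 4030 CPM in WT, 3481 to 4479 CPM in KO, 2513 to 4310 CPM in F and 3566 to 4523 CPM in LKO, with no gene at 0. At CT2 alone they summed to 3566 to 4523 CPM in LKO, above 2513 to 3394 CPM in F. KO and WT overlapped at CT2 (3655 to 4479 and 2735 to 3861 CPM). The periportal sums at CT2 also lay higher in LKO (7790 to 9801 CPM) than in F (6211 to 7612 CPM), and overlapped between KO and WT. At CT14 the sums of both lists overlapped between each knockout and its control. The part of these marker levels in the rise of the Cyp2c genes was not tested.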

How the data were processed

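Liver RNA-seq of 24 libraries was analysed from deposited tables. Per the submitters' processing notes, reads were handled with StringTie 1.3.1, HISAT2 2.2.1 and fastp 0.23.2, and the build was GRCm39. The authors deposited estimated counts per gene, not normalized, and TPM. The authors also deposited log2 fold changes and p-values of their comparisons, with signal columns (mean normalized level) and score columns (test statistics) that were not used. The annotation release is not given in the sources used here, nor is the strand setting. The P450 genes and all gene lists were chosen with earlier results of these data known.

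Counts were rounded and fitted in edgeR 4.0.16 (R 4.3.3): filterByExpr (minimum count 10, minimum total 15), TMM scaling, 8 group means, robust quasi-likelihood F-tests, Benjamini-Hochberg adjustment over all 20514 genes, threshold 0.05. CPM carry the TMM factors. The script was tested on simulated data. Genes given per library were those called in the mean contrasts, the time contrasts of WT and F or the differences of effects, and each subfamily's most abundant tested gene. Genes of other lists are named where called in KO or LKO, apart from a gene that is not reported here. Por, Nr1i2, Nr1i3, Alas1, Dbp and Tef values at single times, and other genes outside these rules, were chosen after their values were seen. Sequence sharing used the GENCODE M21 transcripts (GRCm38), in which 75 of 76 genes were found. Same-numbered F and LKO libraries at CT2 deviated together (correlations 0.180, 0.143 and 0.312, each above 0.1), as in 1 of 28 group pairs, and were blocked there. Alternatives were other scaling, no filter, counts divided by 4, DESeq2, limma on log2(TPM + 1), a replicate block, and libraries left out.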

Additional observations from a re-analysis of the deposited data

Results flagged for a closer look

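Cyp2a5 differed between KO and WT in its change over time, by a test of that difference itself. From CT2 to CT14 it rose by 4.04 ± 0.66 (log2, SE) in WT and changed by -0.09 ± 0.58 in KO, a difference of -4.13 (edgeR's quasi-likelihood test, adjusted p = 0.0256). The call was lost without any 1 of 8 libraries (highest adjusted p = 0.0750), without both KO libraries with spermatid transcripts (adjusted p = 0.157) and without the filter on low counts (adjusted p = 0.0624). All 3 WT libraries at CT14 were above all 3 at CT2. Groups of 3 libraries were too small to test single libraries for standing apart.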

How the results depend on the processing

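Of 59 calls of single P450 genes over all comparisons, 0 changed direction under any alternative, and 30 held without any 1 library. Calls lost were 1 with DESeq2 size factors in edgeR, 13 without the filter on low counts, 1 with counts divided by 4, 10 without the 3 libraries low in Ddx3y, 6 without the 2 KO libraries with spermatid transcripts, 3 with limma on log2(TPM + 1) and 0 with DESeq2. Without the filter the KO mean went from 15 to 10 genes. DESeq2 called 8 in KO at CT2, 5 in LKO at CT2, 10 in LKO at CT14, 3 over time in WT, 4 in F and 2 in LKO, 1 for the time effect of LKO against F and 4 for KO against LKO. Limma called 13 in the LKO mean, 5 in LKO at CT2, 8 at CT14, 2 over time in WT and 1 for KO against LKO. Counts divided by 4 gave 4 in LKO at CT2 and 1 for KO against LKO. Without the libraries low in Ddx3y there were 1 in LKO at CT2 and 2 over time in F. Without the KO libraries with spermatid transcripts there were 2 over time in WT, 0 for the time effect of KO against WT and 1 for KO against LKO, and without the filter 0 for that time effect. The cause of these changes was not tested. Shares over all genes under these alternatives, the block and the fits without 1 library are not given here. The counts therefore have no background beside them.

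Without 1 library at a time, the counts ran from 9 to 16 for the KO mean, 1 to 4 for KO at CT2, 7 to 14 for KO at CT14, 6 to 9 for the LKO mean, 1 to 4 for LKO at CT2 and 4 to 6 for LKO at CT14. They ran from 1 to 3 over time in WT, 0 to 1 in F, 0 to 1 in LKO, 0 to 1 for the time effect of KO against WT, 0 to 2 for KO against LKO and 6 to 11 for F against WT.

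With the replicate number as a block in all groups, 8 of the 59 calls were lost, and the KO mean had 12 genes, KO at CT14 11, the LKO mean 7 and F against WT 7. With the block in F CT2 and LKO CT2 only, an alternative chosen after seeing the data, 4 genes were called in LKO at CT2 and 1 call was lost. Counts near 0, as for Cyp2a4 in KO, limit the precision of its fold change.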

Other observations

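Cyp3a16 was listed at 0 in 20 of the 24 libraries and stood at 9.32 and 5.44 CPM in F CT14 replicates 1 and 3, 9.56 CPM in KO CT14 replicate 3 and 5.53 CPM in KO CT2 replicate 1. The authors' deposited table gives it a log2 fold change of 24.8 for KO against WT (adjusted p = 9.77e-14) and -25.5 for LKO against F (adjusted p = 1.5e-14). In edgeR's test its adjusted p was 0.248 in KO and 1 in LKO.

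In the authors' deposited table, KO against WT with both times together had 20 P450 genes that passed an adjusted p of 0.05, of which 13 were also called in edgeR in the same direction. For LKO against F the number in the authors' deposited table was 12, of which 7 were shared. The shares of all genes that passed in these deposited comparisons are not given here.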
